A study of Mus musculus with 15 samples.

Results

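The mevalonate pathway enzymes described here are the products of 8 genes, Acat2, Hmgcs1, Mvk, Pmvk, Mvd, Idi1, Fdps and Ggps1, out of 54532 genes counted in mouse liver and lung. They were selected by gene symbol, with earlier results of these data known, and all 8 passed the filter on low counts in each tissue. The data were poly(A) RNA sequencing of 9 livers and 6 lungs from 9 wild-type male C57BL/6J mice, an inbred strain. Liver was sequenced from 4 mice on a control diet (CS group) and 5 mice on a diet with 2% phytosterols, plant sterols that resemble cholesterol (PS group). Lung was sequenced from 3 CS and 3 PS mice, which also gave a liver library each. The labels give the age of every mouse as 28 weeks, and no other treatment is labelled. Library totals ran from 14410117 to 17625179 counts in liver and from 17934930 to 19396057 in lung. The second CS liver stood apart from the other 3, with a chi-square per degree of freedom of 237 to 299 over genes against each of them and 38.3 to 87.3 among them. It also had the fewest genes with a count, 15961 against 18250 to 18601 in the other CS livers.

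The pathway turns acetyl-CoA into the isoprenoid units from which cells build cholesterol, ubiquinone, dolichol and the lipid anchors of prenylated proteins. Acat2 joins acetyl-CoA into acetoacetyl-CoA, and Hmgcs1 adds a further acetyl group to form HMG-CoA. Downstream of mevalonate, Mvk and Pmvk add phosphates, Mvd removes carbon dioxide to give isopentenyl diphosphate, and Idi1 interconverts that product with its isomer. Fdps links these units into farnesyl diphosphate, the branch point to sterols, and Ggps1 extends farnesyl diphosphate to geranylgeranyl diphosphate, which modifies small GTPases such as the Rab proteins. In liver, transcription of many of these genes is known to rise when cell sterol falls, through SREBP2, a factor that binds sterol regulatory elements together with NF-Y at CCAAT boxes.

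The genes lie on 5 chromosomes of mouse build GRCm38. Acat2 spans chr17:12942890-12960747 on the minus strand, Hmgcs1 chr13:119690379-119708260 on the plus strand and Mvk chr5:114444269-114460591 on the plus strand. Pmvk (chr3:89454541-89469013, plus strand) and Fdps (chr3:89093588-89101959, minus strand) share a chromosome, and Mvd occupies chr8:122433601-122443422 on the minus strand. Idi1 (chr13:8885501-8892451, plus strand) and Ggps1 (chr13:14050659-14063488, minus strand) share chromosome 13 with Hmgcs1. RefSeq promoters (build GRCm38.p6) were matched by symbol for 7 of the 8 genes, with 8 start sites among them because Pmvk has a second start within its gene.

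The 250 bases before each start were searched on both strands for 3 motifs, and no matches of different motifs overlapped in the member promoters. The sterol regulatory element TCACNCCAC was found in 1.05% of 32817 promoters and in 1 of the 8 member promoters, that of Hmgcs1, where it begins 137 bases before the start. The CCAAT box was found in 33.8% of all promoters and in 6 of the 8 member promoters, and the GC box GGGCGG in 32.7% and in 5. Sequence just before the start is shown for Hmgcs1, Mvk and Mvd, which were higher in PS liver at an unadjusted p of at most 0.05, and for Pmvk, which was not. The windows of Acat2 and Idi1 reach into annotated exons and are not shown. The window of the second Pmvk start (chr3:89459321-89459570) lies inside the Pmvk gene and is not shown either. Which Pmvk start was in use in these tissues was not tested. Capitals mark sterol regulatory elements and CCAAT boxes of either strand, and GC boxes are left in lower case. The windows are chr13:119690101-119690350 (plus strand), chr5:114444069-114444268 (plus strand), chr8:122443423-122443672 (minus strand) and chr3:89454291-89454540 (plus strand), each written 5′ to 3′ along its gene.
Hmgcs1: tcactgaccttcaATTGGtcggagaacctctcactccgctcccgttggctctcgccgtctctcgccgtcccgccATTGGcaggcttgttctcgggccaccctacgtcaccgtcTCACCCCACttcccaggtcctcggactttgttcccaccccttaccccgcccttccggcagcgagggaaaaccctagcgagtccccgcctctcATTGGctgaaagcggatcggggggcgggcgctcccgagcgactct
Mvk: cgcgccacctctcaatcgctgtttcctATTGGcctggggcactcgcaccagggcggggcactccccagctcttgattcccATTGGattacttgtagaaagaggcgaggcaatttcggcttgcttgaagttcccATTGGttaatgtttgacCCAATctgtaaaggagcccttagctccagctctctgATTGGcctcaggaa
Mvd: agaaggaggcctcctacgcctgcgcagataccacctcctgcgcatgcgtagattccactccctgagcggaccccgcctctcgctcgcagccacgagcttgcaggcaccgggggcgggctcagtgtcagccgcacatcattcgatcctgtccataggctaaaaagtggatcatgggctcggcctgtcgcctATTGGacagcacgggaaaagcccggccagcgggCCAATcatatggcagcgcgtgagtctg
Pmvk: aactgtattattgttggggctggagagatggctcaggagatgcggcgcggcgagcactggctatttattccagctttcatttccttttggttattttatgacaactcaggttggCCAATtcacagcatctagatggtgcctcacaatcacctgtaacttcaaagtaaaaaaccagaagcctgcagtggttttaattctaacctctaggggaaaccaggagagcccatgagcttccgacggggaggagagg
Hmgcs1 held 3 CCAAT boxes, Mvk 5, Mvd 2 and Pmvk 1. Ggps1, with the smallest fitted differences between diets, held 3, and Idi1 held 2. A match describes letters only, and binding was not measured in these libraries.

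Levels per length were compared as FPKM (fragments per kilobase of transcript, scaled for library size), the only scale here on which one gene can be set against another. In CS liver the order ran from Hmgcs1 at 18.4 ± 7.35 FPKM (mean ± SD, n = 4) through Acat2 (10.8 ± 1.72) and Pmvk (6.58 ± 3.13) to Mvd (2.26 ± 1.16), Mvk (1.92 ± 0.708), Ggps1 (1.82 ± 0.429), Idi1 (0.825 ± 0.788) and Fdps (0.0282 ± 0.0259). Each neighbouring pair in that order overlapped in range except Idi1 and Fdps. In PS liver Hmgcs1 stood at 38.2 ± 12.9 FPKM (n = 5), apart from Acat2 at 16.5 ± 2.47, which stood apart from Pmvk at 7.62 ± 1.51. Pmvk overlapped Mvd (5.89 ± 1.11), and Mvd stood apart above Mvk (3.69 ± 0.493). Idi1 (1.91 ± 1.43) overlapped both Mvk above it and Ggps1 (1.83 ± 0.198) below it, and Ggps1 stood apart from Fdps (0.285 ± 0.113).

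The lung had a different leading gene. Pmvk was highest in CS lung at 29.7 ± 3.65 FPKM (n = 3), above Hmgcs1 (19.5 ± 3.74) in all 3 libraries without overlap, and the same held on PS with 24.0 ± 6.74 and 14.6 ± 1.05. Acat2 (12.5 ± 1.04) and Ggps1 (10.9 ± 1.18) overlapped in CS lung, as did Mvd (7.02 ± 1.36), Mvk (6.97 ± 0.788) and Idi1 (5.85 ± 1.59). On PS, Acat2 (10.9 ± 0.519) still overlapped Ggps1 (10.4 ± 0.432), whereas Mvd (8.33 ± 0.563), Mvk (6.14 ± 0.836) and Idi1 (0.913 ± 0.414) were separated from each other. Fdps was last in every group, at 0.198 ± 0.00663 FPKM in CS lung and 0.187 ± 0.134 in PS lung. The authors' FPKM of the 2 tissues come from separate tables. The library sizes used to scale them are not given in the sources used here, so these values order genes within a tissue.

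**Figure D1:**
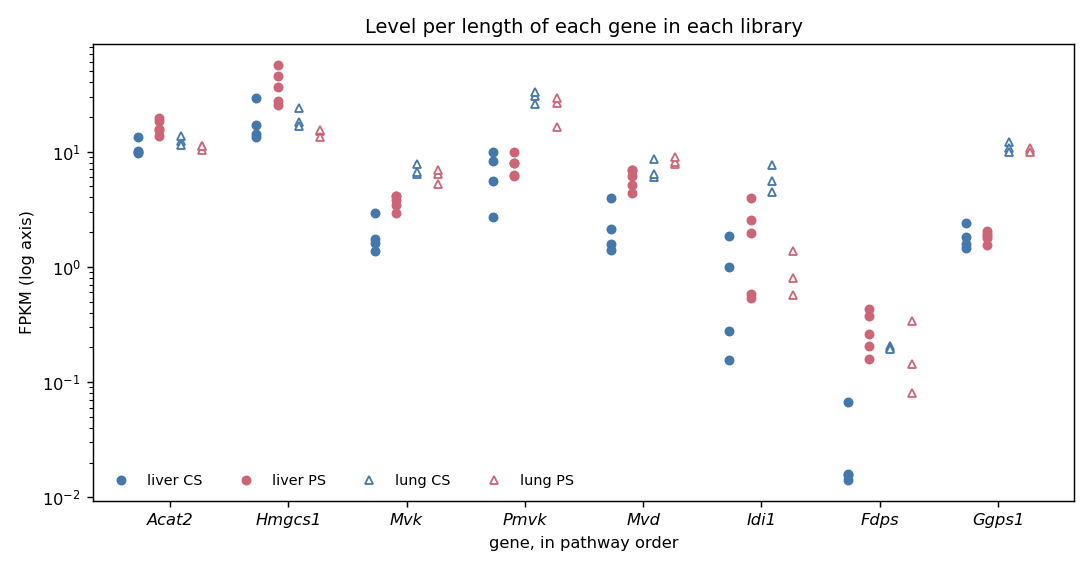
FPKM on a log axis for the 8 genes in pathway order, with 1 point for each library; filled circles are liver, open triangles are lung, blue is CS and red is PS. Fdps lies lowest in all 4 groups, and Idi1 in lung drops from 4.46 to 7.59 FPKM on CS to 0.565 to 1.37 on PS.

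Fdps carried few reads and has near-identical copies. Its 1059 coding bases aligned over their whole length to the processed pseudogene Gm3571 on chromosome 10, with 10 mismatched bases, 2 gap bases and a longest identical run of 188 bases. The 60-base window with the most mismatches inside 1 coding exon has 2 of them, shown in capitals, for Fdps at chr3:89099366-89099425 (minus strand) and Gm3571 at chr10:93778816-93778875 (plus strand).
Fdps: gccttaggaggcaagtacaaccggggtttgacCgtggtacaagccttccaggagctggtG
Gm3571: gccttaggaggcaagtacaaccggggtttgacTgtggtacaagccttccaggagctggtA
Gm3571 held 25 to 43 counts in the CS livers and 69 to 106 in the PS livers, more than Fdps itself, which held 1 to 5 and 10 to 31. A second gene on the same strand, Gm43738, covers 1124 of the 4208 exon bases of Fdps (26.7%) and had 0 counts in all 15 libraries. How reads that fit several genes were counted is not given in the sources used here, so the level of Fdps is uncertain.

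Other members share sequence too. Acat2 and Acat3, a neighbouring acetyltransferase gene, match at 97.7% over 1477 bases, and Acat3 held 1858 to 3783 counts in liver but 11 to 28 in lung. Idi1 matches the processed pseudogenes Gm13502 (100% over 684 bases) and Gm35570 (97.7% over 681 bases), which held 0 to 14 and 0 to 47 counts. Ggps1 matches Gm5630 at 97.2% over 903 bases, with 0 to 3 counts. Acat2 also matches Tcp1, a chaperonin subunit gene, on the opposite strand at 98.7% over 445 bases, although their exons do not overlap, and Tcp1 held 1291 to 2611 counts in liver and 1247 to 2081 in lung. Genes on the opposite strand overlap exons of Hmgcs1 (557 bases, Gm48342), Idi1 (323 bases, Gm48574) and Ggps1 (257 bases, Arid4b), and without a stated strand setting reads of such partners cannot be told apart.

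The first comparison asked whether the PS diet went with other levels of the pathway's transcripts in liver. All 8 genes had a fitted level above that of the CS group. Their median log2 fold change was 1.00, against -0.030 over all 13195 genes tested, of which 46.1% lay above 0. By edgeR's quasi-likelihood test 5 of the 8 (Acat2, Hmgcs1, Mvk, Mvd and Fdps) were higher at an unadjusted p of at most 0.05, a mark that 3.96% of all genes reached in that direction. None of the 8 passed the Benjamini-Hochberg adjusted threshold of 0.05 in edgeR, which 0.00758% of all genes passed, whereas DESeq2's Wald test passed 3 (Mvk, Mvd and Fdps) against 1.24% of all genes. Without Fdps, which passed the filter through its PS libraries, 4 of 7 reached the unadjusted mark and the median was 0.94. Without the second CS liver 5 of 8 still reached it, and the log2 fold change of Pmvk was -0.035.

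Expression within a tissue is given below as CPM, counts scaled to the TMM-adjusted library size, in replicate order. Acat2 stood at 24.7, 24.8, 24.8 and 33.2 CPM in the CS livers and at 34.2, 49.0, 47.1, 38.5 and 38.6 CPM in the PS livers. The groups did not overlap, although the fourth CS liver came within about 1 CPM of the lowest PS liver. The log2 fold change was 0.63 (SE 0.17, 95% interval 0.25 to 1.01, edgeR adjusted p = 0.321). With Acat3 counts added it was 0.46 (edgeR adjusted p = 0.573).

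Hmgcs1, the synthase that commits acetoacetyl-CoA to HMG-CoA, stood at 63.6, 133, 75.9 and 59.5 CPM in CS liver. In PS liver it stood at 257, 163, 208, 114 and 126 CPM. The second CS liver lay above the fourth and the fifth PS livers, so the groups overlapped, and the other 3 CS livers lay below every PS liver. The log2 fold change was 1.06 (SE 0.31, 95% interval 0.38 to 1.75, edgeR adjusted p = 0.355).

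Mvk stood at 4.58, 4.31, 7.72 and 3.59 CPM in CS liver and at 9.97, 10.8, 9.27, 7.70 and 10.9 CPM in PS liver. Here the third CS liver was the high one, level with the fourth PS liver. Its log2 fold change was 0.94 (SE 0.25, 95% interval 0.39 to 1.496) with an edgeR adjusted p of 0.303 and a DESeq2 adjusted p of 0.0386. Pmvk, the next kinase, stood at 9.38, 4.58, 16.4 and 13.8 CPM in CS liver and at 10.6, 16.5, 10.5, 13.4 and 13.4 CPM in PS liver. The CS range spanned nearly the whole PS range, and the log2 fold change of 0.22 had a 95% interval from -0.48 to 0.92.

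Mvd, the decarboxylase, stood at 3.86, 7.28, 2.84 and 2.56 CPM in CS liver and at 12.6, 9.32, 12.9, 7.98 and 11.2 CPM in PS liver. All 5 PS livers lay above all 4 CS livers. The log2 fold change was 1.39 (SE 0.32, 95% interval 0.68 to 2.09), a 2.61-fold difference, with an edgeR adjusted p of 0.214 and a DESeq2 adjusted p of 0.00665. Leaving out the second CS liver, the one with the most Mvd, gave 1.80 (edgeR adjusted p = 0.0178). In that fit 43 genes of all 13368 tested were called higher and 22 lower, against 1 and 0 with every liver, and that was the only left-out liver that brought a member past the adjusted threshold.

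Relative to its mean, Idi1 varied most between livers of 1 group, closely followed by Fdps on CS. It stood at 3.42, 0.539, 6.38 and 0.960 CPM on CS and at 2.01, 8.81, 1.87, 13.4 and 6.76 CPM on PS, so the first and the third PS livers lay below 2 of the CS livers. The log2 fold change of 1.21 (SE 0.74, 95% interval -0.41 to 2.83, edgeR adjusted p = 0.763) was smaller than this spread allows to be told from 0. Without the third CS liver, the one with the most Idi1, it was 1.98 and reached the unadjusted mark (edgeR adjusted p = 0.561). Over the fits without 1 liver it ran from 0.77 to 1.98.

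Fdps had 5, 1, 1 and 1 counts in the CS livers and 14, 27, 31, 15 and 10 counts in the PS livers, without overlap. The 8 CS and 97 PS counts give a ratio per library total of 9.68 (exact 95% interval 4.72 to 23.1, covering counting error only). The fitted log2 fold change was 3.23 (SE 0.62, edgeR adjusted p = 0.114, DESeq2 adjusted p = 0.00149), and without the first CS liver, which held the 5 counts, it was 4.07 (edgeR adjusted p = 0.304). When its matching pseudogenes were added to its counts it was 1.44 (SE 0.25, edgeR adjusted p = 0.0916), close to Gm3571 alone at 1.42 (SE 0.24, edgeR adjusted p = 0.0974). Both ways of counting put PS above CS, but the size, 3.23 or 1.44 on the log2 scale, depended on the pseudogenes.

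Ggps1, which draws farnesyl diphosphate away from sterols, stood at 7.34, 11.4, 6.67 and 8.39 CPM in CS liver and at 9.04, 8.24, 9.74, 8.43 and 7.16 CPM in PS liver. Every PS liver lay inside the CS range, and the log2 fold change was 0.014 (95% interval -0.44 to 0.47). Among the 8 genes, 3 did not overlap between diets (Acat2, Mvd and Fdps), all higher on PS, where 2.1% of all tested genes did so. As Fdps passed the filter through its PS libraries, the count without it is 2 of 7. In bulk tissue a change in RNA per cell and a change in cell makeup cannot be told apart.

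**Figure D2:**
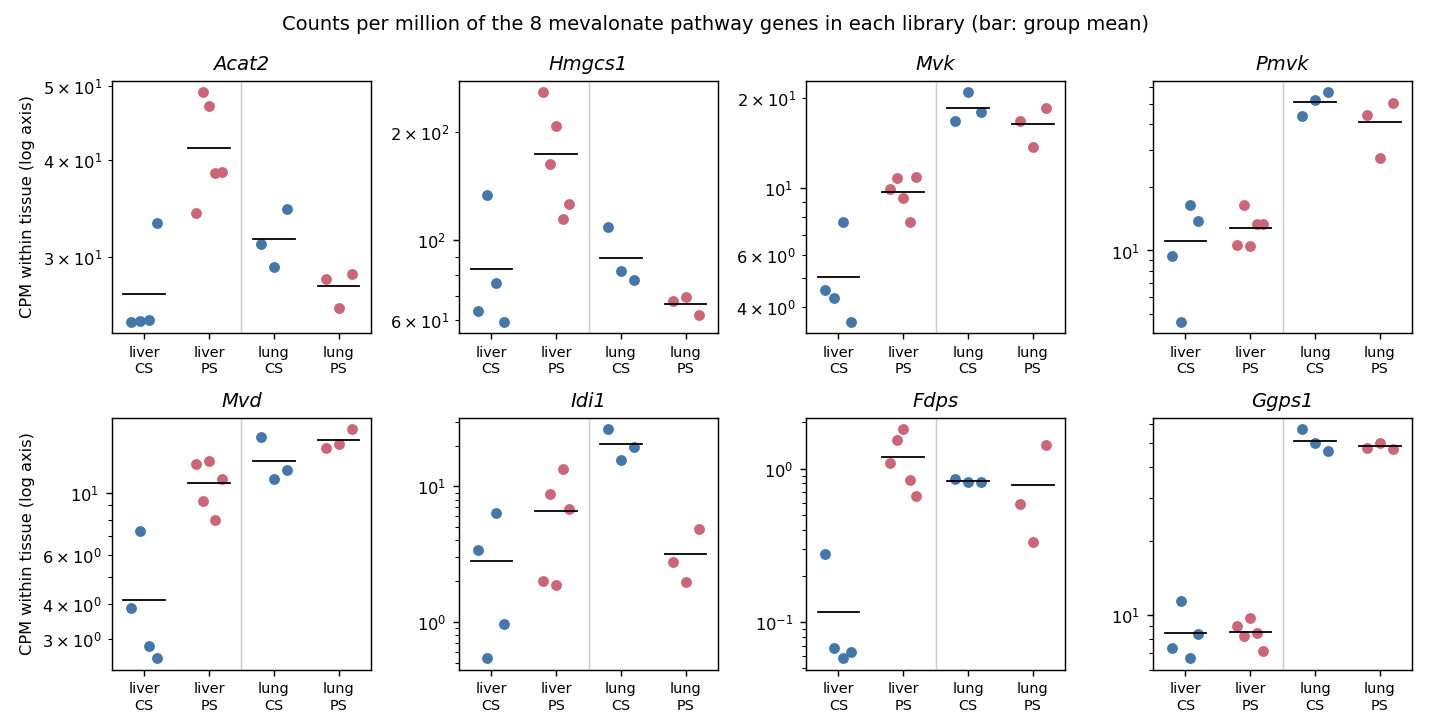
CPM on log axes for each of the 8 genes, scaled within each tissue, with 1 point for each library and a bar at the group mean; blue is CS and red is PS. All PS livers lie above all CS livers for Acat2, Mvd and Fdps, and all PS lungs lie below all CS lungs for Acat2, Hmgcs1 and Idi1.

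The same diet comparison in lung gave another picture. Of the 8 genes 7 had a fitted level below that of the CS group and only Mvd lay above it, while 49.6% of all 16717 genes tested lay below. The members' median on the log2 scale was -0.19 against 0.0052 for all genes. Idi1 alone passed the adjusted threshold, as 4.43% of all genes did in that direction, and Idi1 and Hmgcs1 reached an unadjusted p of at most 0.05, as 14.5% of all genes did. The lung comparison called many genes, 802 higher and 740 lower on PS, or 412 higher and 946 lower when counts were scaled by library totals alone, an alternative chosen after seeing the data. The counts changed with 1 lung left out. At most 26 genes were called in 4 of the 6 such fits (CS replicates 1, 2 and 3 and PS replicate 2), with 0 without CS replicate 3, whereas 1752 higher and 1197 lower were called without PS replicate 1 and 947 higher and 1309 lower without PS replicate 3.

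Idi1 stood at 26.4, 15.6 and 19.4 CPM in the CS lungs and at 2.78, 1.95 and 4.86 CPM in the PS lungs. The lowest CS lung held over 3 times the highest PS lung. Its log2 fold change was -2.67 (SE 0.35, 95% interval -3.48 to -1.87), 6.38-fold lower on PS, with an edgeR adjusted p of 0.0154, and adding its pseudogenes gave -2.62 (edgeR adjusted p = 0.0163). The adjusted call was lost in 3 of the 6 fits that left out 1 lung, without CS replicate 1 (0.0638), CS replicate 3 (0.0589) or PS replicate 2 (0.0632), with log2 fold changes from -3.11 to -2.42 over the 6.

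Hmgcs1 stood at 109, 82.2 and 77.6 CPM in CS lung and at 68.0, 69.6 and 62.1 CPM in PS lung. All PS lungs lay below all CS lungs, by a narrow margin. The log2 fold change was -0.43 (SE 0.16, 95% interval -0.79 to -0.062, edgeR adjusted p = 0.115). Acat2 also did not overlap, at 31.2, 29.1 and 34.6 CPM on CS and 28.1, 25.7 and 28.5 CPM on PS, with a log2 fold change of -0.20 (95% interval -0.53 to 0.12). Non-overlap in this direction was common in lung, at 18.8% of all tested genes, and 3 of the 8 members showed it.

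The other 5 genes overlapped between diets in lung. Mvk ran from 16.8 to 20.9 CPM on CS and from 13.8 to 18.5 CPM on PS, with a log2 fold change of -0.18 (95% interval -0.60 to 0.23). Pmvk ran from 43.8 to 56.7 CPM and from 27.7 to 50.7 CPM, with -0.31 (-0.82 to 0.20), and its second PS lung was the lowest. Mvd ran from 11.2 to 15.8 CPM and from 14.4 to 16.8 CPM, with 0.24 (-0.20 to 0.69). Ggps1 was the steadiest, from 46.7 to 57.1 CPM and from 47.4 to 50.3 CPM, with -0.079 (-0.40 to 0.24). Fdps had 17, 16 and 15 counts on CS and 10, 6 and 26 on PS, a ratio per library total of 0.903 (exact 95% interval 0.582 to 1.39, counting error only).

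**Figure D3:**
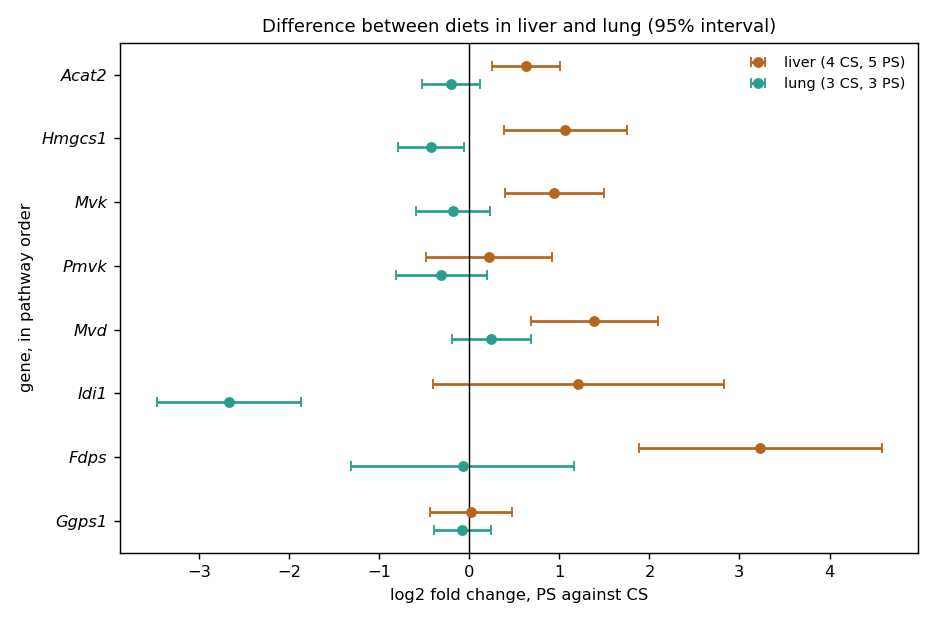
Log2 fold change of PS against CS for each gene in pathway order, with 95% intervals from edgeR, in liver (brown) and lung (green). The liver interval lies above 0 for Acat2, Hmgcs1, Mvk, Mvd and Fdps, and the lung interval lies below 0 for Hmgcs1 and Idi1.

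Whether the diet difference itself differed between tissues was tested in 1 model of all 15 libraries. Each of the 8 genes had a lower fitted diet difference in lung than in liver, as did 49.9% of the 17696 genes tested, with a median difference of -1.19 against 0.0019 for all genes. At an unadjusted p of at most 0.05, 6 of 8 were lower (all but Pmvk and Ggps1), where 5.4% of all genes were. None passed the adjusted threshold in edgeR (4 of all genes did, 0.0226%), and 5 did in DESeq2 (Acat2, Hmgcs1, Mvk, Idi1 and Fdps), where 1.29% of all genes did.

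Idi1 differed by -3.94 (SE 1.02, 95% interval -6.10 to -1.78, edgeR adjusted p = 0.233, DESeq2 adjusted p = 0.0155). This isomerase combined a liver interval that included 0 with the lung fall described above. Fdps differed by -3.40 (SE 0.88, edgeR adjusted p = 0.233), or by -1.87 (SE 0.41, edgeR adjusted p = 0.182) with its pseudogenes added. Which of Idi1 and Fdps differed more depended on the libraries, as the values were -2.92 and -3.39 with the mouse as a block and -4.05 and -4.29 without the first CS liver. Hmgcs1 differed by -1.54 (SE 0.41, 95% interval -2.40 to -0.68) and Acat2 by -0.87 (SE 0.25, 95% interval -1.39 to -0.35). For Mvk the difference was -1.17 (SE 0.35) and for Mvd -1.20 (SE 0.41), while the intervals of Pmvk (-1.54 to 0.40) and Ggps1 (-0.69 to 0.41) included 0. Each fit without 1 library gave an unadjusted count of 6 and an adjusted count of 0.

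Lung was then set against liver on each diet, in the same model. The scale matters here, as the median log2 difference over all genes was 0.18 with TMM factors, 0.30 (CS) and 0.34 (PS) with DESeq2 size factors, and 1.55 (CS) and 1.56 (PS) with library totals alone. The calls over all genes on CS were 6556 higher and 5317 lower in lung with TMM, and 11815 higher and 2285 lower with library totals. Values are therefore given as TMM-scaled differences and, in brackets named as such, relative to the median gene. Relative to that gene the largest spread of a member over the 3 scalings was 0.050 and no sign changed. As subtracting the median removes a shift shared by all genes, this agreement was built in and does not show which scale holds.

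Acat2 and Hmgcs1, the steps before mevalonate, were lower in lung. On CS the log2 differences were -1.13 for Acat2 (relative to the median gene, -1.31) and -1.24 for Hmgcs1 (-1.42), with edgeR adjusted p of 4.08e-05 and 0.00167. On PS they were -2.005 (-2.18) and -2.78 (-2.96), with adjusted p of 5.72e-08 and 7.98e-07. With library totals alone both turned to slightly higher in lung on CS, by 0.26 and 0.14, and stayed lower on PS, by -0.62 and -1.39. Adding Acat3 to Acat2 gave -3.78 on CS and -4.47 on PS.

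Ggps1 and Pmvk leaned the other way. Ggps1 was higher in lung on both diets, by 1.25 (relative to the median gene, 1.07; adjusted p = 1.85e-05) and by 1.10 (0.93; adjusted p = 3.24e-05) on the log2 scale. Pmvk was higher on CS by 0.83 (0.65; adjusted p = 0.0354), a call that 4 of the 15 fits without 1 library lost (liver CS replicates 1 and 2, lung CS replicates 2 and 3), and on PS its 0.25 (0.079) had an interval from -0.41 to 0.92. In each of the 6 mice with both tissues the lung held more Ggps1 than the liver on the TMM scale, by 0.84 to 1.59 on CS and 0.97 to 1.27 on PS.

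For the remaining 4 genes the fitted TMM-scaled difference had a different sign on each diet. On CS the lung lay above the liver by 0.51 for Mvk, 0.31 for Mvd, 1.47 for Idi1 and 1.40 for Fdps, without any passing the adjusted threshold (edgeR adjusted p from 0.0749 to 0.381). Each passed it when the CS liver with the most of that gene was left out, a choice that raises the lung difference by construction: Fdps without replicate 1 (2.35, adjusted p = 0.0142), Mvd without replicate 2 (0.69, 0.0199), and Mvk (0.80, 0.00499) and Idi1 (2.24, 0.0135) without replicate 3. Mvk on CS also passed with DESeq2 size factors (adjusted p = 0.0306), in DESeq2's Wald test (0.0142) and with at least 10 counts in every library (0.00868), and Idi1 in the Wald test (0.0388). In 2 of the 3 CS mice with both tissues the lung held more Mvk than the liver, and likewise for Mvd. For Idi1 and Fdps the lung held more in 3 of 3. In 0 of the 3 PS mice with both tissues did the lung hold more of any of these 4 genes. On PS all 4 were lower in lung, by -0.66 for Mvk, -0.89 for Mvd, -2.47 for Idi1 and -1.997 for Fdps, with edgeR adjusted p of 0.0232, 0.0117, 0.00793 and 0.00566. Mvk lost that call without the second PS lung (-0.55, edgeR adjusted p = 0.104), with DESeq2 size factors (0.0757), with no filter on low counts (0.0889) and with at least 10 counts in every library (0.163), and Mvd lost it with that last filter (0.0824). Relative to the median gene the PS differences were -0.84, -1.07, -2.64 and -2.17. With library totals alone, Mvk (0.73) and Mvd (0.50) were higher in lung on PS too, and with pseudogenes added Fdps was lower in lung on CS (-0.52).

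In all, 4 of 8 members passed the adjusted threshold on CS, 2 in each direction, and 7 of 8 on PS, 6 of them lower in lung, where 67.1% and 68.7% of all genes passed. By direction, 37% of all genes were higher and 30% lower in lung on CS, and 38% and 30.7% on PS. With library totals alone, 6 members passed as higher and 0 as lower on CS, where 11815 and 2285 of all 17696 genes passed. On PS 3 members passed as higher and 2 as lower with that scaling, where 12040 and 2327 of all genes passed. The 12 libraries of mice with both tissues were also fitted without and with the mouse as a block. On CS 4 passed without the block and 5 with it, which added Idi1 (edgeR adjusted p = 0.143 and 0.0324). There 6319 of all 17605 genes passed as higher and 4889 as lower without the block, and 5843 and 4275 with it. On PS 5 passed without the block, as Mvk (0.0736) and Idi1 (0.0958) did not on these libraries, and 4 with it, which took Fdps from 0.0247 to 0.0973. Of all genes, 6611 passed as higher and 4530 as lower on PS without the block, and 5968 and 4183 with it. The log2 difference of Fdps on PS was -1.86 without the block and -1.96 with it. That of Idi1 was -1.45 and -1.27, against -2.47 over all libraries. The counts of 4 and 7 of 8, against 67.1% and 68.7%, say little about the members as a group. The count lower in lung on PS, 6 of 8 against 30.7%, lay above its share, but it was 2 with library totals alone.

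**Figure D4:**
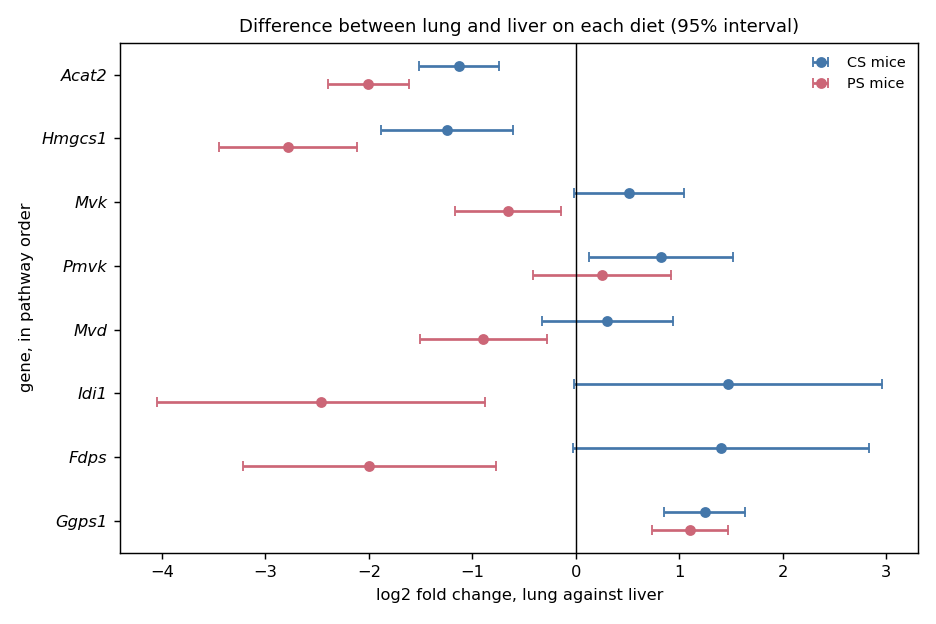
Log2 difference of lung against liver with 95% intervals from edgeR on TMM-scaled counts, for CS mice (blue) and PS mice (red), in pathway order. Acat2 and Hmgcs1 lie below 0 and Ggps1 above 0 on both diets, while Mvk, Mvd, Idi1 and Fdps lie above 0 on CS and below 0 on PS, whereas with library totals alone Acat2 and Hmgcs1 on CS and Mvk and Mvd on PS lay above 0.

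The genes around the pathway were counted in 3 lists. The 13 genes from squalene synthase to cholesterol, which use farnesyl diphosphate for sterols, were all tested in both tissues. In liver all 13 lay above CS (median log2 difference 0.65), where 46.1% of all genes did. At an unadjusted p of at most 0.05, 7 were higher, where 3.96% of all genes were, and none of them passed the edgeR adjusted threshold. DESeq2 passed 6, all higher, where it passed 1.24% of all genes in either direction. The smallest p values were those of the methylsterol oxidase Msmo1 (2.14, SE 0.28, edgeR adjusted p = 0.0540), Nsdhl (1.53), squalene synthase Fdft1 (0.97) and squalene epoxidase Sqle (1.91). In lung 8 of the 13 lay below CS and 5 above, with a median of -0.41. At the unadjusted mark 1 was higher and 5 were lower, where 15.6% and 14.5% of all genes were. By edgeR's adjusted p 1 rose (Tm7sf2, a sterol reductase, 1.38, adjusted p = 0.0368) while 1 fell (the desaturase Sc5d, -0.67, adjusted p = 0.0322), where 4.8% and 4.43% of all genes passed in those directions. Without 1 lung the call of Tm7sf2 was kept in 1 of 6 fits and that of Sc5d in 2. DESeq2 passed 1 higher and 3 lower in lung, where it passed 9.65% and 8.86% of all genes. For the difference of the diet effect between tissues the median was -1.09, with 1 gene higher and 7 lower at the unadjusted mark, where 5.54% and 5.4% of all genes were. DESeq2 passed 6, all lower, where it passed 1.29% of all genes in either direction. In edgeR Msmo1 passed the adjusted threshold (-2.58, SE 0.39, edgeR adjusted p = 0.0296), a call kept in 4 of the 15 fits without 1 library.

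Another 19 enzymes take the isoprenoids elsewhere, to ubiquinone, dolichol and prenylated proteins. In liver 11 of them lay above CS and 8 below with a median of 0.023. None reached the unadjusted mark in edgeR, which 3.96% of all genes reached as higher and 3.58% as lower. In DESeq2 1 was higher at that mark, as were 623 of all 13179 genes. None passed its adjusted threshold, which 1.24% of all genes passed. In lung 3 were higher and 6 lower at the unadjusted mark, where 15.6% and 14.5% of all genes were. There 1 of the 19 rose and 2 fell past the adjusted threshold, which 4.8% and 4.43% of all genes passed: Rabggta, a subunit of the enzyme that prenylates Rab proteins (0.80, SE 0.20, adjusted p = 0.0427), Pggt1b, a subunit of an enzyme that attaches geranylgeranyl groups (-0.67, SE 0.16, adjusted p = 0.0417), and the protease Zmpste24 (-0.53, SE 0.14, adjusted p = 0.0497). Without 1 lung these calls were kept in 1 of 6 fits for Rabggta and Zmpste24 and in 2 for Pggt1b. DESeq2 passed 1 higher and 3 lower in lung, against 9.65% and 8.86% of all genes. The list's lung median was -0.089. For the difference of the diet effect between tissues 2 were higher and 0 lower at the unadjusted mark in edgeR, where 5.54% and 5.4% of all genes were. The adjusted threshold was passed by 0 in edgeR or DESeq2.

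A list of relatives of the first steps held 8 genes, enzymes of ketone bodies and fatty acid oxidation and also Acat3, the near copy of Acat2, and 7 of the 8 were tested. In liver 1 was higher and 1 lower at the unadjusted mark, Acat3 (0.43, SE 0.19) and the ketone-using enzyme Oxct1 (-0.73, SE 0.32), with a median of 0.082, where 3.96% and 3.58% of all genes reached it. In lung 2 were lower at that mark (14.5% of all genes), Acat1 among them (log2 fold change -0.50, edgeR adjusted p = 0.0650), with none past the edgeR adjusted threshold and 2 lower past that of DESeq2 (8.86% of all genes). Between tissues 6 of the 7 were lower and Oxct1 was higher in lung on either diet, all past the edgeR adjusted threshold, with medians of -4.49 and -4.44. Of all genes, 30% passed as lower and 37% as higher on CS, and 30.7% and 38% on PS.

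Clock genes were counted as well, as the time of day of collection is not given in the sources used here. In liver 8 of the 12 clock genes listed were higher and 3 lower on PS at the unadjusted mark, which 3.96% and 3.58% of all genes reached in those directions, and 0 passed the edgeR adjusted threshold. Dbp, an output gene of the clock, stood at 0.828, 26.6, 4.41 and 2.30 CPM in CS liver and at 108, 28.4, 91.4, 37.9 and 112 CPM in PS liver. Arntl, which encodes the activator BMAL1, stood at 21.4, 13.9, 23.2 and 15.6 CPM on CS and at 4.02, 9.66, 5.01, 7.02 and 5.37 CPM on PS. Both sets of livers were apart, and the CS liver nearest to the PS livers in these genes, replicate 2, had the most Hmgcs1, Mvd and Ggps1 of the CS livers and the least Pmvk and Idi1. Without it the log2 fold changes were 1.39 for Hmgcs1 (edgeR adjusted p = 0.0512) and 1.80 for Mvd.

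In lung 8 of the 12 were higher and 3 lower on PS at the unadjusted mark, which 15.6% and 14.5% of all genes reached. The adjusted threshold was passed by 5, Cry1 as lower and the others as higher. Of all genes, 4.8% passed it as higher and 4.43% as lower. Each of these clock gene calls was kept in 1 or 2 of the 6 fits without 1 lung. Ciart, a repressor of the clock, ran from 3.60 to 5.46 CPM in CS lung and stood at 7.34, 28.1 and 50.8 CPM in PS lung. The part of the clock genes in the members' differences was not tested.

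**Figure D5:**
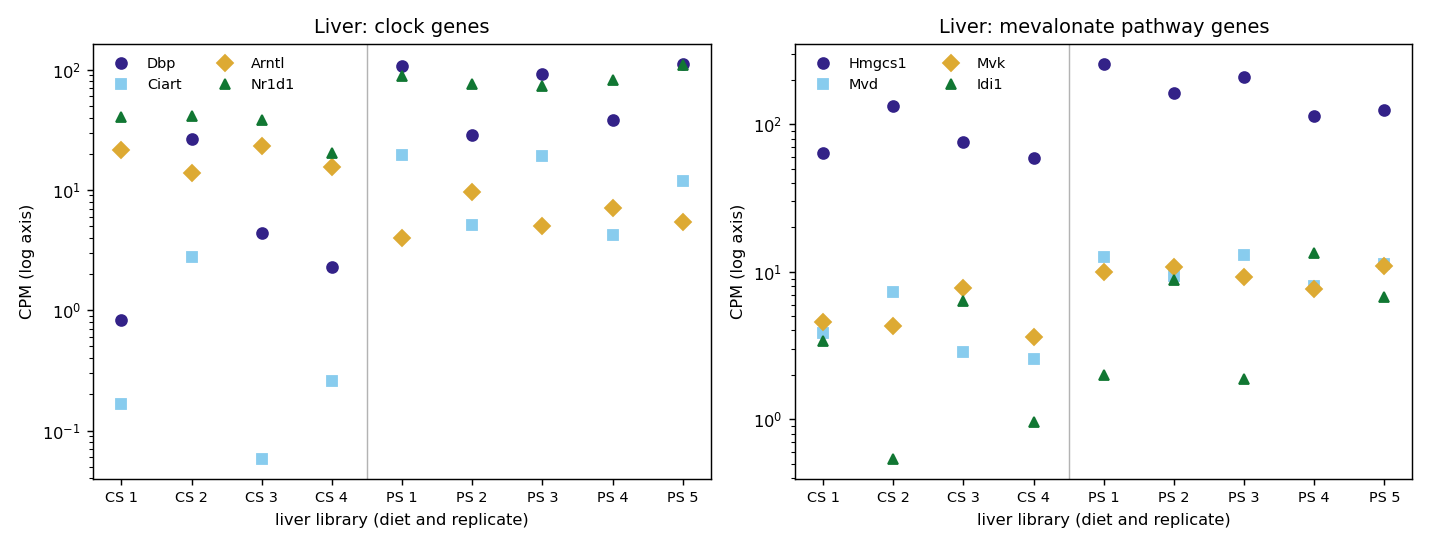
CPM on log axes in each liver library, with 4 clock genes at left and 4 mevalonate pathway genes at right; the grey line separates CS from PS. Dbp and Ciart lie higher and Arntl lower in the 5 PS livers, and CS replicate 2 has the highest Dbp, Hmgcs1 and Mvd of the CS livers.

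The labelled tissues were checked against markers. The 6 hepatocyte genes summed to 74762 to 116659 CPM in liver and to at most 97.8 CPM in lung, and the 4 alveolar type II genes summed to 18703 to 33440 CPM in lung and to at most 4.11 CPM in liver. None of the 6 hepatocyte genes passed the unadjusted mark between diets in liver. The 3 Kupffer cell genes summed to 148 to 188 CPM in CS liver and to 49.2 to 153 CPM in PS liver, with 1 of 3 lower at the unadjusted mark, and the 4 fat cell genes to 22.4 to 72.5 and 3.40 to 21.03 CPM, with Lep at 0 in all PS livers. The 3 endothelial genes summed to 32.7 to 49.99 CPM in CS liver and to 16.0 to 45.0 CPM in PS liver, all fitted lower and none past the unadjusted mark. In lung the alveolar type II sum was 18703 to 19530 CPM on CS and 21077 to 33440 CPM on PS, with 2 of the 4 genes fitted higher and 2 lower, and 1 of them higher at the unadjusted mark. Of the 3 endothelial genes in lung, which summed to 1700 to 1953 CPM on CS and 1607 to 1969 CPM on PS, Kdr was lower past the adjusted threshold (-0.95, edgeR adjusted p = 0.0412), a call kept in 2 of the 6 fits without 1 lung. The fat cell genes in lung summed to at most 72.8 CPM on CS (median 44.7) and at most 42.9 CPM on PS (median 10.4), with all 4 fitted lower and none past the unadjusted mark. The 3 alveolar type I genes were all fitted higher in PS lung, with Rtkn2 past the unadjusted mark (0.44). Heart muscle genes in lung summed to 157 to 228 CPM on CS and 32.4 to 411 CPM on PS. Of these 4 genes 3 were fitted higher, and Actc1 was lower past the unadjusted mark (-0.91). At that mark 15.6% of all genes were higher and 14.5% lower in lung. The part of these cell types in the members' differences was not tested.

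Genes outside the pathway were ranked by how closely they followed the mean z-score of the 8 members across libraries. In liver (9 libraries) the closest were Pter (Pearson r = 0.97), Polr3f (0.97), Prnp (0.95), Alas1 (0.95) and Nfyb (0.94). In lung (6 libraries) they were Cdc5l, Vps36, Snx27, Med22 and Mtf1, each with r of 1.00 to 2 decimals. These are the highest of all genes with a mean of at least 1 CPM, over few libraries that share diet groups, and they stand as a description only.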

How the data were processed

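Poly(A) RNA was sequenced from 15 mouse tissue samples. The authors aligned reads to mm10 with HISAT2 2.0.5 and counted them per gene with featureCounts 1.5.0-p3; the deposited tables hold raw counts and FPKM per library, with no column outside these samples. Counts were fitted with edgeR 4.0.16 (TMM scaling, filterByExpr, robust quasi-likelihood test, Benjamini-Hochberg adjustment over all genes tested) in R 4.3.3. DESeq2 1.42.0, other scalings and filters, summed copies, limma 3.58.1 on log2(FPKM + 1) and log2(FPKM + 0.1), blocks and left-out libraries were alternatives, and the model was tested on simulated data. Copies were found with BLAST 2.17.0 (at least 95% identity over 200 bases) in GENCODE M21 transcripts. Mouse names in the labels pair liver with lung; deviations of such pairs correlated from -0.112 to 0.218. P-values of the diet comparisons within a tissue measure the spread between mice. Those of the model of all 15 libraries pool the spread over both tissues. Its main fit treats liver and lung of the same mouse as independent. The labels and the study differ on whether 28 weeks is age or feeding time. Members and lists were chosen with earlier results of these data known: named genes were the 8 members, their copies, up to 4 genes of each list with the smallest p, and the 5 closest genes per tissue with a mean of at least 1 CPM. Not every gene of the pathway and of the lists is reported here by name.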

Additional observations from a re-analysis of the deposited data

Results flagged for a closer look

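Of 16 groups of livers (8 genes, 2 diets) examined for 1 library far from the others, 2 held one, where chance alone flags about 1 in 20. Acat2 in the fourth CS liver was 33.2 CPM, above 24.7 to 24.8 CPM in the other 3. Fdps in the first CS liver was 0.276 CPM, from 5 counts against 1 in each of the others.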

How the results depend on the processing

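In liver the number of members past the adjusted threshold was 0 in edgeR and 3 with DESeq2's Wald test, and ran from 0 to 1 without 1 library (1 without CS replicate 2); the unadjusted count was 5, and 6 without CS replicate 3. In lung it was 1, and 0 to 1 without 1 library; the count at the unadjusted mark was 2, and 1 to 2 without 1 library (1 without CS replicate 1 or PS replicate 3). For the difference between tissues DESeq2 passed 5 and edgeR 0. For lung against liver on CS the unadjusted count of 4 became 7 with DESeq2 size factors and with its Wald test. On PS 7 passed by either mark, 3 of the 6 genes left when at least 10 counts were required in every library by either mark, and 5 past the adjusted threshold on the 12 libraries of mice with both tissues. On those libraries the mouse block, a replicate block by mouse, gave 4, losing Fdps, and on CS it added Idi1; it changed no other adjusted call of a member. On CS the adjusted count of 4 ran from 3 to 6 without 1 library. In liver Pmvk ran from -0.0353 (without CS replicate 2) to 0.475 without 1 library, and Ggps1 was -0.0116 with library totals and ran from -0.0839 to 0.19 without 1 library. In lung Fdps ran from -0.84 to 0.29 without 1 library. On log2(FPKM + 1) limma gave 0.318 for Fdps and 0.624 for Idi1 in liver and -1.84 for Idi1 in lung. On log2(FPKM + 0.1) these were 1.56, 1.21 and -2.60, against 3.23, 1.21 and -2.67 in edgeR. Library totals turned Acat2 (0.26) and Hmgcs1 (0.14) on CS and Mvk (0.73) and Mvd (0.50) on PS, and summed copies turned Fdps on CS (-0.52); the cause of other changes was not tested. Replicate numbers do not pair CS with PS mice: deviations of same-numbered livers correlated from -0.411 to -0.0241 and of lungs from -0.00522 to 0.091. With the replicate block the diet comparisons kept 5 and 0 members in liver by the 2 marks and 2 and 1 in lung. Fdps rests on 1 to 5 counts in each CS liver, and how reads shared with its copies were counted is not given in the sources used here. All other log2 fold changes kept their direction under the alternatives run.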
